A study of Mus musculus with 6 samples.

Results

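The cells described here are visceral endoderm cells of the mouse embryo at E5.0, E5.25 and E5.5 (embryonic days) that held RNA of Lhx1, Sfrp1 or Otx2 but almost none of Cer1 and Lefty1. A cell was kept with at least 1500 genes, at least 5000 UMIs (unique molecular identifiers, 1 per captured RNA molecule) and at most 15% mitochondrial UMIs. It counted as visceral endoderm when Cubn, Lrp2, Dab2 and Amn together reached 15 per 10000 UMIs and Pou5f1, Slc7a3, Pim2 and L1td1 together stayed under 5. A member then held at least 2 UMIs of Lhx1, Sfrp1 and Otx2 in sum, no Cer1 and fewer than 2 of Lefty1. The rule found 1429 members among 4457 visceral endoderm cells and 13741 kept cells of the 3 libraries. They were 846 of 2296 visceral endoderm cells at E5.0 (36.8%, exact 95% binomial interval 34.9 to 38.9%), 402 of 1437 at E5.25 (28.0%, 25.7 to 30.4%) and 181 of 724 at E5.5 (25.0%, 21.9 to 28.3%). These denominators hold 495, 296 and 132 cells rich in laminin and parietal endoderm RNA, which are described below. The working name of the population, embryonic visceral endoderm outside the anterior centre, is a position, and the files hold no position. Members were thus chosen by measured UMI counts of these genes in the same cells, so what separates members from other cells below is a description and no test was made of it.

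Embryos came from matings of B6SJLF1/J females, 7 weeks old at these stages, with B6CBAF1/J males, both hybrids of inbred strains. They were dissected from the uterus and dissociated with Accumax and DNase, and E5.5 cells also passed a 20 µm filter, whereas E5.0 and E5.25 cells did not. Each stage was 1 droplet library (10x Chromium 3' v3.1) of pooled embryos, whose number and sex the sources used here do not give. Each stage being a single library, no replicate spread can be given, and stage, library, depth and filter cannot be told apart, and no p-value is given for stages. None is given for members against other cells of their library, since the counts of the same cells chose the members.

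The visceral endoderm is the epithelium that surrounds the early postimplantation embryo and feeds it by endocytosis, for which Cubn, Lrp2, Amn and Dab2 encode the receptors cubilin and megalin, the cubilin partner amnionless and a clathrin adaptor. Its distal part, which covers the epiblast, thickens and then moves to the future anterior side, where it secretes Cer1 and Lefty1, antagonists of NODAL signalling, and antagonists of WNT. Lhx1, a LIM homeodomain transcription factor, and Otx2, a homeodomain factor of the orthodenticle type, are both known to act in the visceral endoderm in head formation. Sfrp1 encodes a secreted WNT-binding protein, and Gpc4 a glypican, a cell-surface heparan sulfate proteoglycan that binds growth factors.

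Members are set below against other visceral endoderm cells of the same library. Cells that met the marker rule but held Cer1 or at least 2 UMIs of Lefty1 are called Cer1 or Lefty1 cells, and numbered 283, 208 and 68 at E5.0, E5.25 and E5.5. Cells without a UMI of Lhx1, Sfrp1 or Otx2, the marker-negative cells, numbered 902, 689 and 398. After the data were seen these were split by the laminin genes Lama1 and Lamb1 at 10 per 10000 UMIs, because they held cells with parietal endoderm genes. The laminin-rich cells, 495, 296 and 132 in number, had summed levels of 8 parietal endoderm markers of 6981, 7770 and 6505 CPM (UMIs of a gene per 1000000 UMIs of the population). The 407, 393 and 266 laminin-poor cells had 2558, 2344 and 1308 CPM of them, and the members 2019, 1612 and 1239 CPM. The split was not applied to the members, of which 24 (2.84%), 7 (1.74%) and 16 (8.84%) were laminin-rich by the same limit, with 3997, 5953 and 3469 CPM of the parietal endoderm markers. Lamb1 is among the 8 markers, so the limit itself fixed part of the higher sums of laminin-rich cells and laminin-rich members. Values given in sets of 3 stand for E5.0, E5.25 and E5.5, and a log2 ratio compares CPM plus 10.

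The summed UMIs of the 3 genes of the rule ran from 0 upwards without a gap. At E5.0, 902 cells held 0 UMIs, 265 held 1, 134 held 2, 104 held 3 and 719 held 6 or more. At E5.25, 689 held 0, 62 held 2 and 444 held 6 or more, and at E5.5, 398, 34 and 136. On the Lefty1 side, 136 members at E5.0 held the 1 UMI that the rule allows, and 64 cells just outside held 2 with no Cer1. That boundary moved with depth. Every cell was thinned to 5000 UMIs for the counts of Lhx1, Sfrp1, Otx2, Cer1 and Lefty1. The uptake and epiblast sums and the filters on cells kept full depth. Then 147 of the 283 Cer1 or Lefty1 cells of E5.0 (51.9%) met the member rule, as did 88 of 208 at E5.25 (42.3%) and 17 of 68 at E5.5 (25.0%). Members after thinning were 27.4%, 23.6% and 24.0% of visceral endoderm cells.

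**Figure D1:**
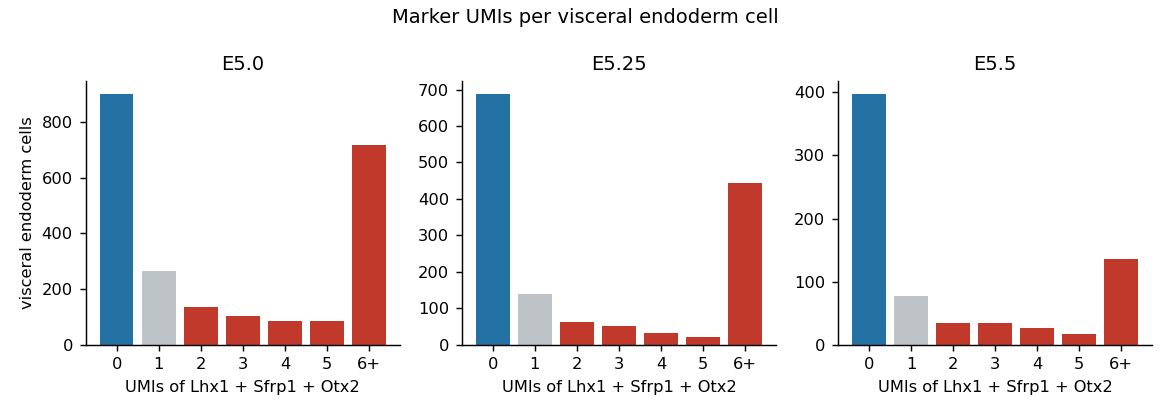
Visceral endoderm cells of each library (y axis, number of cells) by their summed UMIs of Lhx1, Sfrp1 and Otx2 (x axis). Blue bars are marker-negative cells, grey bars cells with 1 UMI, and red bars cells that meet the marker rule, among them the Cer1 or Lefty1 cells; the bars at 0 and at 6 or more are the tallest in every library.

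Most members held more than 1 of the 3 markers. All 3 were found in 418 members (49.4%), 210 members (52.2%) and 79 members (43.6%). Members with no Lhx1 UMI were 85 (10.0%), 52 (12.9%) and 62 (34.3%), and the median UMI count of members at E5.5, 6892, was under that of 15833.5 at E5.0 and 16004.5 at E5.25. At 5000 UMIs per cell, Lhx1 was found in 55.7%, 56.5% and 55.8% of members, Sfrp1 in 41.4%, 58.2% and 75.1% and Otx2 in 43.5%, 45.0% and 64.6%. These 3 genes chose the members at full depth, and 57.0%, 62.4% and 86.7% of members still met the rule after thinning, so these shares are not compared between stages. In summed counts Lhx1 was at 183, 209 and 199 CPM, Sfrp1 at 124, 202 and 318 CPM and Otx2 at 125, 125 and 246 CPM. The genes lie at chr11:84518284-84525535, chr8:23411502-23449632 and chr14:48657677-48673819 (GRCm38, GENCODE M21). Lhx1 and Otx2 have antisense neighbours, and no source used here says if reads were counted by strand, so the reads of each pair cannot be told apart. Otx2 was also at 152, 175 and 179 CPM in epiblast-type cells, whereas trophoblast-type cells had it in 1.16%, 0.59% and 2.22% of cells at 5000 UMIs.

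Gpc4 (chrX:52053021-52165252) was not part of the rule and separated members from marker-negative cells in each library. It was at 277, 425 and 619 CPM in members, with exact 95% Poisson intervals of 269 to 286, 409.6 to 440.3 and 578 to 661 CPM. Laminin-poor cells had 59.4, 77.0 and 107 CPM and laminin-rich cells 15.1, 12.8 and 28.1 CPM, and none of their intervals reached those of members. Cer1 or Lefty1 cells lay above members, at 563, 1111 and 1150.1 CPM. At 5000 UMIs per cell, Gpc4 was found in 64.5%, 76.6% and 85.6% of members and 25.8%, 25.7% and 32.3% of laminin-poor cells. Trophoblast-type cells, with 4.86%, 6.74% and 7.44%, give the level that free RNA may reach. All intervals here cover counting error only.

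The promoters of Lhx1, Otx2 and Gpc4 are shown from RefSeq on GRCm38.p6, each from 250 bases before to 50 after an annotated start, 5′ to 3′ on the gene's strand. Members were chosen by Lhx1 and Otx2 UMIs, and Gpc4 was not part of the rule. Capitals mark TAATTA, a palindromic core bound by many homeodomain factors including the LIM type, and TAATCC or its reverse complement GGATTA, the core of orthodenticle-type factors.
Lhx1, chr11:84525485-84525784, minus strand: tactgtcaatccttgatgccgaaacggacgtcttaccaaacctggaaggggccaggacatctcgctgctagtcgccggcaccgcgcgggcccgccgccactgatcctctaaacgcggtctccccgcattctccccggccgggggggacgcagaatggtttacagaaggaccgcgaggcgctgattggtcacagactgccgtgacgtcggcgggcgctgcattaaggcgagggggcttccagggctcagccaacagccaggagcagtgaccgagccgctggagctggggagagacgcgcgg
Otx2, chr14:48665060-48665359, minus strand: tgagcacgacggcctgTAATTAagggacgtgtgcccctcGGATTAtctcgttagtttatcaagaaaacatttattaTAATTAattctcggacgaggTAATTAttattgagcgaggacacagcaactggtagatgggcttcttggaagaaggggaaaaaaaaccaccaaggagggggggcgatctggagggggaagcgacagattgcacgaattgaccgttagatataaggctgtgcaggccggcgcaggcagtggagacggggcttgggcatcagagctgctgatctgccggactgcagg
Gpc4, chrX:52164874-52165173, minus strand: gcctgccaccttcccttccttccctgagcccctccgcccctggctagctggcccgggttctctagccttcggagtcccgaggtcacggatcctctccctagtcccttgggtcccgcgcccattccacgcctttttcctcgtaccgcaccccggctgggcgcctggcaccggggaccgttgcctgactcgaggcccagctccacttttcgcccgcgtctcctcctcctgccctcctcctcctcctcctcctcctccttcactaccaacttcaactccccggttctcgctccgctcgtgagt
On both strands, the Otx2 window held 3 copies of TAATTA and 1 of GGATTA, and none overlapped another. The Lhx1 and Gpc4 windows held none of these letters. Of 4 annotated Otx2 starts, the one shown held the most matches, a second held 1 TAATTA and the others held no match. Among all 32851 promoters of this length, 5.29% held TAATTA and 7.06% held TAATCC or GGATTA. These shares are per single promoter and do not allow for the choice among 4 Otx2 windows. A match is a description of the letters and not a bound site.

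Depth and other cell types were checked first. Over all barcodes, kept or not, the 3 libraries held 90663248 to 112702098 UMIs for E5.0 and E5.25 and 80593552 for E5.5. Of 5929, 4552 and 27302 barcodes, 5447, 3922 and 4372 were kept. Between pairs of these libraries, 5, 12 and 3 barcodes of kept cells were shared. Median mitochondrial shares of members were 4.96%, 5.15% and 4.32%. Members held 1159, 971 and 1027 CPM in sum of 8 epiblast markers against 3204, 3178 and 3392 CPM in epiblast-type cells and 881, 537 and 746 CPM in laminin-poor cells. Of 8 trophoblast markers members held 126, 157 and 283 CPM against 1859, 2050 and 2355 CPM in trophoblast-type cells and 180.5, 139 and 622 CPM in laminin-poor cells, and none of the 8 was at 0 in members. Over the immediate early and dissociation stress genes measured in each library, median log2 ratios of members over marker-negative cells were -0.42, -0.50 and -0.58. For all genes they were 0.033, 0.011 and 0.0032. Against laminin-poor cells 7 of 9 measured stress genes were lower in all 3 libraries, beside 25.1% of all genes measured. Against Cer1 or Lefty1 cells 0 of 6 were lower, beside 21.9%. Of 8 blood and maternal stroma markers members held 0.94, 0.57 and 1.43 CPM. The part of such RNA in the results below was not tested, except where a value is given.

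Against all marker-negative cells, 87 of 8486 measured genes were at least 2-fold higher in members in all 3 libraries, a background of 1.03%, and 63 were at least 2-fold lower, 0.742%. A gene was measured with at least 10 CPM in 1 of the populations of each library. Against laminin-poor cells alone, 60 of 8357 genes were higher (0.718%) and 4 were lower (0.0479%). Of the higher genes 55 stood in both sets, which is 63.2% of the first and 91.7% of the second, and of the lower genes 3. Of the other lower genes none was 2-fold lower than in laminin-poor cells in all 3 libraries, and 1, Arhgap6, was 2-fold higher in all 3. Without the laminin-rich members described above, the 60 higher genes all remained among 64 against laminin-poor cells, and the 4 lower genes among 7, with Fabp3, Nrg1 and Fst added. Lhx1, Sfrp1 and Otx2, set to 0 in marker-negative cells by the rule, are among the higher genes of both counts.

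Of the 12 genes named as highest over marker-negative cells, Fgf8, Fgf5, Efna5, Ntn1 and Kitl encode ligands or guidance molecules. Fgf8, a fibroblast growth factor of gastrulation, was at 109, 99.3 and 119.7 CPM in members and 14.0, 2.27 and 5.35 CPM in laminin-poor cells. Fgf5, better known from the epiblast, was at 163, 144 and 128 CPM against 45.7, 12.3 and 17.0 CPM. Members lay above laminin-poor cells in every library for both. They also lay above the epiblast-type cells of the same libraries, at 53.1, 19.9 and 16.8 CPM for Fgf8 and 90.4, 80.4 and 86.9 CPM for Fgf5. Pou5f1 was at 20.8, 16.7 and 17.2 CPM in members and 693, 619 and 715 CPM in epiblast-type cells, a gap that the rule set in advance. The 8 epiblast markers outside the rule were at 1159, 971 and 1027 CPM in sum in members. In epiblast-type cells they were at 3204, 3178 and 3392 CPM, and the part of epiblast RNA in Fgf8 and Fgf5 was not tested. Fgf10 had log2 ratios of 0.98, 1.78 and 1.83 over laminin-poor cells, and 0.98, 1.79 and 1.85 without laminin-rich members, and was at 339.8, 355 and 97.8 CPM in laminin-rich marker-negative cells.

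Efna5, a membrane-bound ligand of Eph receptors, was the gene with the largest smallest ratio over laminin-poor cells among those named, which leave out the genes of the rule. It was at 87.6, 182 and 187 CPM in members and 4.68, 3.57 and 13.1 CPM in laminin-poor cells, log2 ratios of 2.73, 3.83 and 3.09. At 5000 UMIs it was found in 27.1%, 45.3% and 43.6% of members against 1.97%, 1.02% and 3.76% of laminin-poor cells. Its level in epiblast-type cells, 60.2, 108 and 122 CPM, was under that of members in each library. Ntn1, which encodes the guidance protein netrin 1, was at 264, 279 and 230.1 CPM in members and 109, 53.7 and 64.2 CPM in laminin-poor cells. Kitl, the ligand of the receptor KIT, was at 50.7, 77.1 and 116 CPM against 8.11, 4.22 and 15.1 CPM.

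The other named genes included Col23a1 and Irs4, which ranked first and next by the smallest ratio over marker-negative cells, and Cdh2. Cdh2, which encodes N-cadherin, was at 173, 285 and 229 CPM in members and 34.0, 39.1 and 36.5 CPM in laminin-poor cells, and was found at equal depth in 52.4%, 69.7% and 63.5% and 16.2%, 14.2% and 13.5% of cells. Cdh1, which encodes E-cadherin of the same epithelium, had log2 ratios of only 0.11, 0.25 and 0.12. The 2 cadherins were thus present together in the members' summed RNA. Col23a1, a membrane-spanning collagen, was at 261, 376 and 267 CPM against 39.6, 29.7 and 33.1 CPM, and Pdzrn3, a ubiquitin ligase with PDZ domains, at 90.6, 125 and 127 CPM against 12.5, 15.3 and 15.6 CPM. Irs4, an adaptor of insulin signalling, had log2 ratios of 2.38, 3.25 and 2.53, Atp8a1, a phospholipid flippase, of 1.18, 1.44 and 1.52, and Elmo1, an activator of RAC in cell migration, of 1.12, 1.49 and 1.90. By the same rule against laminin-poor cells, Arhgap6, a GTPase-activating protein, had log2 ratios of 1.67, 1.99 and 2.68 and Grb10, an imprinted adaptor that restrains growth, of 1.44, 2.56 and 2.10. Arhgap6 was much higher in laminin-rich cells, at 1378, 2586 and 1662 CPM, than in members, at 58.8, 82.1 and 188 CPM. Without laminin-rich members it was at 36.9, 64.4 and 89.6 CPM, with log2 ratios over laminin-poor cells of 1.12, 1.68 and 1.69.

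**Figure D2:**
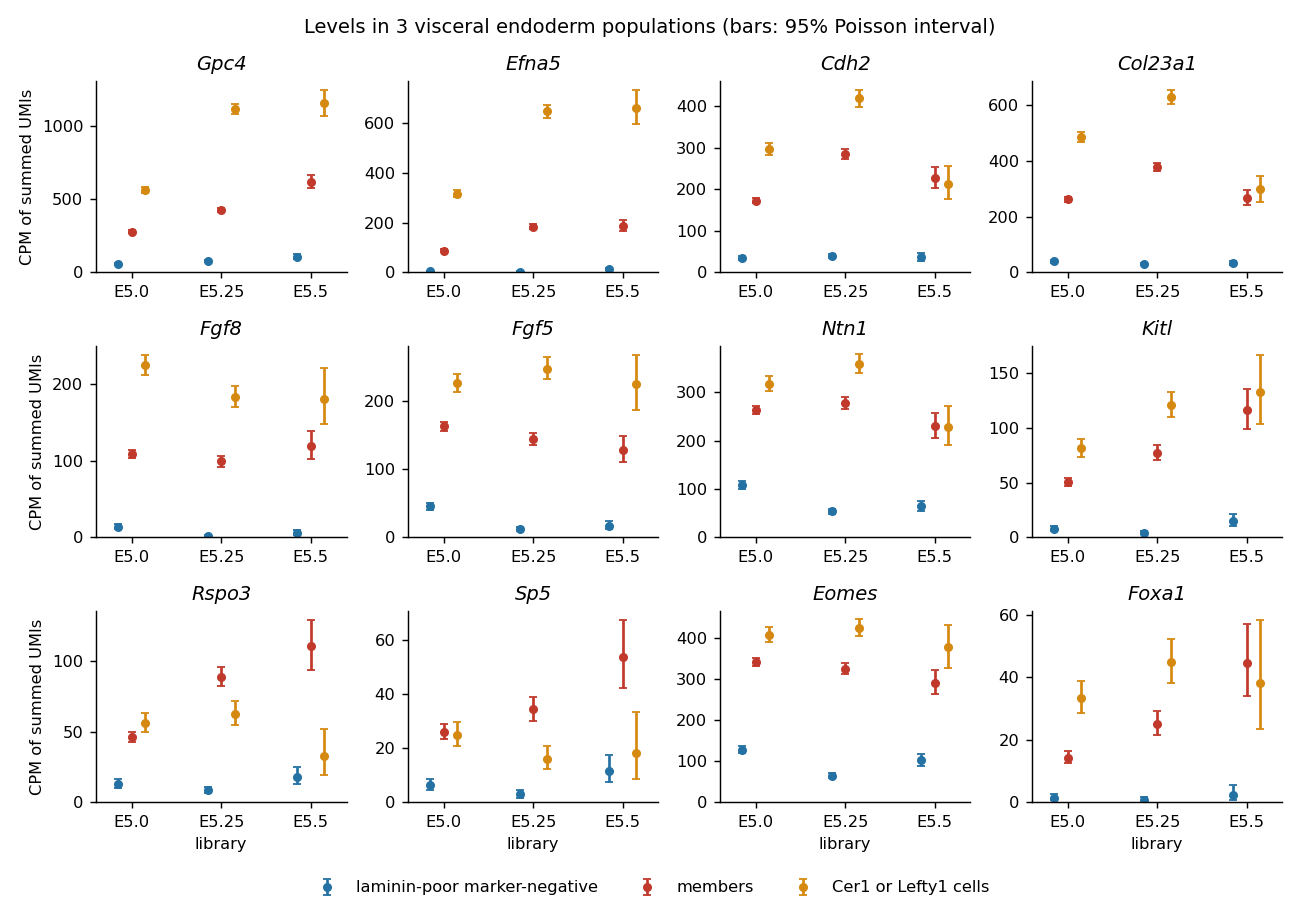
Levels of 12 genes (y axis, CPM of summed UMIs, linear from 0) in the 3 libraries (x axis) for laminin-poor marker-negative cells (blue), members (red) and Cer1 or Lefty1 cells (orange), with exact 95% Poisson intervals that cover counting error only. Members lie above laminin-poor cells in each library for all 12 genes, and above Cer1 or Lefty1 cells for Rspo3 and Sp5 at E5.25 and E5.5.

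Genes of the WNT pathway were counted over a list of 29. Of its 15 measured genes, 4 were at least 2-fold higher than in marker-negative cells in all 3 libraries and 0 lower, beside 1.03% of all genes measured that were higher. Against laminin-poor cells the same 4 of 13 were higher, beside 0.718% of all genes. The list's median log2 ratios over marker-negative cells were 0.40, 0.36 and 0.50, against 0.033, 0.011 and 0.0032 for all genes. The 4 were Rspo3, Sp5, Fzd5 and Sfrp5. Rspo3 encodes R-spondin 3, which strengthens WNT signals, and was at 46.0, 88.8 and 110.4 CPM in members and 13.1, 8.44 and 18.0 CPM in laminin-poor cells. Sp5, a transcription factor and direct WNT target, was at 26.0, 34.3 and 53.8 CPM against 6.39, 2.92 and 11.7 CPM. Neither gene was found beyond 1.83% of epiblast-type cells at equal depth (Rspo3 at E5.5). The receptor gene Fzd5 was at 63.3, 79.0 and 149.8 CPM against 15.1, 10.4 and 12.2 CPM, and Sfrp5, a secreted antagonist, at 39.0, 54.2 and 61.6 CPM against 6.24, 6.33 and 7.78 CPM. Porcn, needed for WNT secretion, had log2 ratios of 0.85, 1.11 and 1.32, the first under 2-fold. Ctnnb1, which encodes beta-catenin, had 0.31, 0.32 and 0.43.

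In the NODAL pathway 2 of 12 measured genes of a list of 19 were at least 2-fold higher and 0 lower, against both marker-negative sets. Of all genes measured, 1.03% were higher against all marker-negative cells and 0.718% against laminin-poor cells. Nodal, the ligand, was at 22.9, 25.5 and 15.8 CPM in members, 5.15, 1.95 and 1.46 CPM in laminin-poor cells and 15.1, 11.6 and 12.9 CPM in epiblast-type cells, its main textbook source. Eomes, a T-box factor downstream of NODAL, was at 341, 325 and 291 CPM in members and 128, 65.3 and 103 CPM in laminin-poor cells. The list's median log2 ratios over laminin-poor cells were 0.10, 0.07 and 0.19, against 0.016, 0.0082 and 0.0016 for all genes. Among transcription factors of the visceral endoderm, 2 of 13 were higher and 0 lower, Eomes and Foxa1. The forkhead gene Foxa1 was at 14.3, 25.0 and 44.4 CPM against 1.40, 0.65 and 2.43 CPM, its relative Foxa2 had log2 ratios of 0.56, 0.71 and 0.87, and Foxa3 of 0.30, 0.32 and 0.09. Gata4 and Hnf4a, core factors of the whole tissue, had log2 ratios over laminin-poor cells of -0.16, -0.02 and -0.07 and of 0.01, -0.27 and -0.10.

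Of 18 measured FGF and ERK genes of a list of 21, 3 were at least 2-fold higher against both marker-negative sets: Fgf5, Fgf8 and Il17rd, a membrane inhibitor of FGF signalling at 115, 129 and 134 CPM in members and 52.3, 28.1 and 50.6 CPM in laminin-poor cells. The shares of all genes measured were 1.03% against all marker-negative cells and 0.718% against laminin-poor cells. Egr1, an immediate early gene, was the 1 lower gene of the list against all marker-negative cells. The ERK feedback genes Spry1 and Spry4 had log2 ratios over laminin-poor cells of 0.63, 0.75 and 0.52 and 0.73, 1.32 and -0.10. In the BMP list, 0 of 16 measured genes were 2-fold different from marker-negative cells in all 3 libraries. The list does not hold the ligand gene Bmp6, which was 2-fold lower than in marker-negative cells in all 3, with log2 ratios of -1.06, -1.10 and -1.42. Bmp2, a ligand of the list, had log2 ratios over laminin-poor cells of 0.95, 1.27 and 1.28, and the BMP targets Id1, Id2 and Id3 of -0.50, -0.71 and -0.27, -0.87, -1.33 and -0.96 and -0.36, -0.41 and -0.29. All 3 Id genes lay below laminin-poor cells and above Cer1 or Lefty1 cells in each library. Ssbp3, which encodes a partner of the LIM domain cofactor LDB1, was 1 of 3 measured LIM cofactor genes and was at 354, 341 and 376 CPM in members against 162, 114 and 159 CPM. Ldb1 itself had log2 ratios of 0.12, 0.40 and -0.01. Of 4 measured glypicans and syndecans Gpc4 alone was 2-fold different. Gpc3, at 2897, 3612 and 2960.4 CPM in members, had log2 ratios of 0.15, 0.29 and 0.17, and Sdc4 of -0.59, -0.82 and -1.19.

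The 4 genes that were lower than in laminin-poor cells in every library were Fabp1, Timp3, Rhox6 and Dusp9. Fabp1, a fatty acid carrier of absorbing epithelia, was at 10.0, 11.02 and 3.58 CPM in members and 50.7, 68.8 and 50.1 CPM in laminin-poor cells, and at equal depth in 4.02%, 3.73% and 1.66% against 18.4%, 21.9% and 16.5% of cells. Timp3, an inhibitor of matrix proteases, was at 52.4, 62.2 and 33.7 CPM against 124, 189 and 100.2 CPM. Rhox6, an X-linked homeobox gene, had log2 ratios of -1.03, -1.28 and -1.14, and Dusp9, a phosphatase of MAP kinases, of -1.01, -1.21 and -1.17. Just under that threshold lay Bmp6, a BMP ligand, with -0.89, -1.28 and -1.47, and Cdh4, which encodes R-cadherin, with -1.11, -0.88 and -1.15. The ligand genes Nrg1 and Apln had -1.42, -1.07 and -0.87 and -0.85, -0.997 and -1.32. The fatty acid carrier Fabp3 had -0.89, -1.36 and -1.22 against laminin-poor cells and was at 3109.6, 2563 and 2367 CPM in laminin-rich cells against 567, 333 and 266 CPM in members.

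Against all marker-negative cells the lower genes named by rule were mostly of the laminin-rich cells. Lama1 was at 3808, 4364 and 3517 CPM in those, 135, 119 and 274 CPM in members and 184, 176 and 118 CPM in laminin-poor cells, and the split itself used it and Lamb1. Plod2, a collagen-modifying enzyme, was at 1371, 1419 and 1022 CPM, 96.4, 90.8 and 139 CPM and 139.8, 149 and 119 CPM. Fst, an antagonist of activin, was at 417, 596 and 470.1 CPM, 18.1, 13.2 and 44.4 CPM and 68.2, 63.8 and 33.6 CPM in the same order of populations. Against laminin-poor cells, the cytokine receptor gene Lifr had log2 ratios of -0.08, 0.26 and 0.75, Epas1, a hypoxia-inducible factor, of 0.07, -0.35 and 1.16 and F3, which encodes tissue factor, of -0.17, -0.15 and 0.61. At E5.5 Lama1, Plod2, Fst, Lifr, Epas1 and F3 thus lay above laminin-poor cells. That library held the 16 laminin-rich members given above. Without laminin-rich members, Lama1 was at 73.9, 80.2 and 80.1 CPM, and the E5.5 log2 ratios over laminin-poor cells were -0.51 for Lama1, -0.32 for Plod2, -1.05 for Fst, 0.06 for Lifr, -0.38 for Epas1 and -0.21 for F3. Of 11 basement membrane genes, 7 were at least 2-fold lower than in all marker-negative cells and 0 of 11 than in laminin-poor cells, beside 0.742% and 0.0479% of all genes measured. Lama5, the laminin chain of mature epithelia, went the other way, with log2 ratios of 0.51, 0.49 and 0.60 over laminin-poor cells.

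Genes of the uptake and secretion list went both ways in members. Against laminin-poor cells, 5 of 15 were higher by any amount in all 3 libraries and 5 lower. Of all genes measured, 25.1% were lower in this way. The list's median log2 ratios over laminin-poor cells were 0.06, 0.08 and -0.23. Of 15 genes, 3 were at least 2-fold higher and 1 lower against all marker-negative cells, and 2 higher and 0 lower against laminin-poor cells, Afp and Trf. Over all genes measured, 1.03% were higher against the first set and 0.718% against the second. Afp, which encodes alpha-fetoprotein, was at 22.6, 94.8 and 268 CPM in members and 3.12, 15.9 and 93.4 CPM in laminin-poor cells. Trf, which encodes transferrin, was at 30.9, 56.1 and 64.5 CPM against 4.68, 16.2 and 24.8 CPM. Rbp4, the retinol carrier, had log2 ratios of 1.26, 1.43 and 0.99. The apolipoproteins did not move as a group: Apob had 1.09, 0.98 and 0.48, Apoa1 0.45, 0.36 and 0.59 and Apoc2 -0.07, -0.48 and -1.15. The endocytic genes of the rule were somewhat lower in members than in laminin-poor cells, with -0.37, -0.51 and -0.80 for Cubn and -0.18, -0.39 and -0.63 for Lrp2.

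Members and Cer1 or Lefty1 cells were close. At the 2-fold threshold in all 3 libraries, 2 of 8349 genes were higher in members (0.024%) and 13 lower (0.156%). Cer1 and Lefty1, which the rule used, are among the 13. The 2 higher genes were Tbx3 and Nhsl2, the second under 50 CPM at E5.5 and so named here after its values were seen, at 56.2, 52.9 and 35.8 CPM in members and 17.1, 10.5 and 12.7 CPM in Cer1 or Lefty1 cells. Tbx3, a T-box factor, was at 111, 135 and 105 CPM in members and 48.6, 33.9 and 41.7 CPM in Cer1 or Lefty1 cells. Nrg1, Klf8 and Aqp8 encode a ligand of ERBB receptors, a zinc finger repressor and a water channel, and had log2 ratios of 1.72, 2.53 and 0.92, 0.84, 1.64 and 1.08 and 0.81, 1.89 and 1.59. The membrane ligand Efnb1 had 0.93, 1.33 and 1.55, the growth hormone receptor Ghr 0.72, 1.00 and 0.90, and the sterol genes Insig1 and Dhcr7 0.81, 1.56 and 0.75 and 0.71, 0.88 and 0.79.

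Genes that were lower in members than in Cer1 or Lefty1 cells included Efna5, at 316, 647 and 660.3 CPM in the latter, Fzd5, at 181, 361 and 461 CPM, and Grb10, at 245, 617 and 651 CPM. Mecom, a zinc finger factor, had log2 ratios of -1.50, -2.32 and -1.25, Cd24a, a surface glycoprotein gene, of -1.76, -1.77 and -1.24, and Pkdcc, a secreted kinase gene, of -1.41, -1.83 and -1.15. Maml3, a NOTCH coactivator, and Chst11, a chondroitin sulfotransferase, had -1.07, -1.49 and -1.32 and -0.94, -1.18 and -1.02. Each of these was nonetheless higher in members than in laminin-poor cells in each library. Of the 9 anterior and distal genes 8 were measured, and all 8 lay below Cer1 or Lefty1 cells in each library, as did 21.9% of all genes measured, and 2 of them, Gsc and Fzd5, by 2-fold. Gsc, a homeobox gene of organiser tissues, was at 19.5, 22.3 and 17.2 CPM in members, 72.0, 84.9 and 45.4 CPM in Cer1 or Lefty1 cells and 0, 0.16 and 0.97 CPM in laminin-poor cells. Hhex had log2 ratios of -0.75, -1.54 and -1.20 and the WNT antagonist Dkk1 of -0.43, -0.73 and -1.45. Members thus held Gsc, Sfrp5 and Fzd5 above the marker-negative cells, and the thinning above shows how many cells near this boundary change sides with depth.

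Rspo3 and Sp5 did not follow the order of Gpc4 and Efna5. At E5.0 Rspo3 was lower in members, at 46.0 CPM (42.6 to 49.5), than in Cer1 or Lefty1 cells, at 56.1 CPM (49.8 to 63.0), while the intervals of Sp5, at 26.0 and 25.0 CPM, overlapped. At E5.25 both genes were higher in members, with Rspo3 at 88.8 and 62.8 CPM and Sp5 at 34.3 and 16.2 CPM. At E5.5 Rspo3 was at 110.4 CPM in members (93.6 to 129) and 32.7 CPM in Cer1 or Lefty1 cells (19.4 to 51.6). Sp5 was at 53.8 CPM (42.3 to 67.4) and 18.1 CPM (8.70 to 33.4). The values of Cer1 or Lefty1 cells at E5.5 rest on 18 UMIs of Rspo3 and 10 of Sp5. At 5000 UMIs, Rspo3 was found in 21.5%, 32.6% and 35.4% of members and 20.5%, 21.6% and 14.7% of Cer1 or Lefty1 cells.

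Genes of cholesterol synthesis placed members between the other populations. Of 18 genes, 17 were higher in members than in Cer1 or Lefty1 cells in all 3 libraries and 17 lower than in laminin-poor cells, beside 24.5% and 25.1% of all genes measured, although 0 of 18 reached 2-fold in all 3 in either comparison. The median log2 ratios were 0.58, 0.62 and 0.32 over Cer1 or Lefty1 cells, against -0.0009, 0.0084 and 0.01 for all genes, and -0.65, -0.51 and -0.22 over laminin-poor cells. Fdft1, which makes squalene, was at 163, 188 and 142 CPM in laminin-poor cells, 84.5, 93.0 and 73.1 CPM in members and 45.3, 50.7 and 45.4 CPM in Cer1 or Lefty1 cells. Hmgcs1, an early enzyme of the pathway, was at 353, 420.3 and 221, 189, 254 and 204 and 126, 159 and 165 CPM in the same 3 populations. Insig1, a sterol-responsive regulator outside the list, was at 290.4, 372 and 172, 114, 149 and 88.9 and 60.8, 43.9 and 49.0 CPM. Ebp, a sterol isomerase gene, was the 1 gene of the list that did not lie between the other populations in all 3 libraries. Laminin-rich cells had less of these RNAs than laminin-poor cells, with Fdft1 at 76.0, 90.3 and 65.2 CPM.

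**Figure D3:**
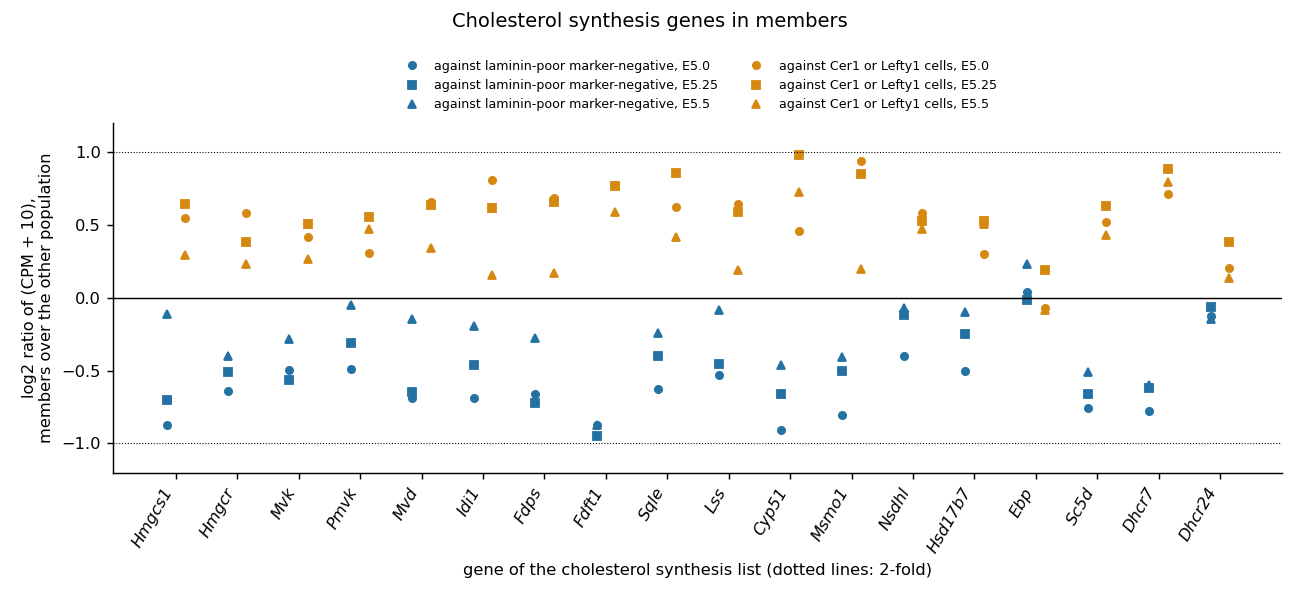
Log2 ratios of CPM plus 10 (y axis) for the 18 genes of the cholesterol synthesis list (x axis), members over laminin-poor marker-negative cells (blue) and over Cer1 or Lefty1 cells (orange), with 1 symbol per library and dotted lines at 2-fold. Blue points lie under 0 for 17 genes and orange points above 0 for 17 genes in all 3 libraries.

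Members differed among themselves along the same order. Members with all 3 markers were set against those with Lhx1 only at E5.0 (418 and 88 cells) and E5.25 (210 and 24 cells). Their mean depths were close, at 17669 and 18207 UMIs at E5.0 and 16793 and 18406 UMIs at E5.25. In both libraries 41 of 8502 genes were at least 2-fold higher with all 3 markers (0.482%) and 7 lower (0.0823%), with Sfrp1 and Otx2 higher by the way the subsets were defined. At E5.5 only 5 members held Lhx1 alone, too few to compare. Efna5 had log2 ratios of 2.89 and 3.33 at E5.0 and E5.25, Gpc4 of 1.57 and 1.71, Fzd5 of 1.59 and 2.23 and Gsc of 1.83 and 2.00. The neuregulin gene Nrg1 had -1.66 and -2.60, Insig1 -1.10 and -0.998, and Apln, which encodes the peptide apelin, -1.31 and -2.34. Members with Lhx1 only lay nearer to laminin-poor cells than to members with all 3 markers in Gpc4 and Efna5, with Gpc4 at 115 and 168 CPM and Efna5 at 8.74 and 20.4 CPM. Sp5 differed little between the subsets, with 0.50 and 0.30, and Rspo3 had 0.77 and 1.28. Members without Lhx1 had more trophoblast marker RNA, at 175, 278 and 449 CPM in sum, against 126, 157 and 283 CPM in all members, and its part in their other levels was not tested.

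**Figure D4:**
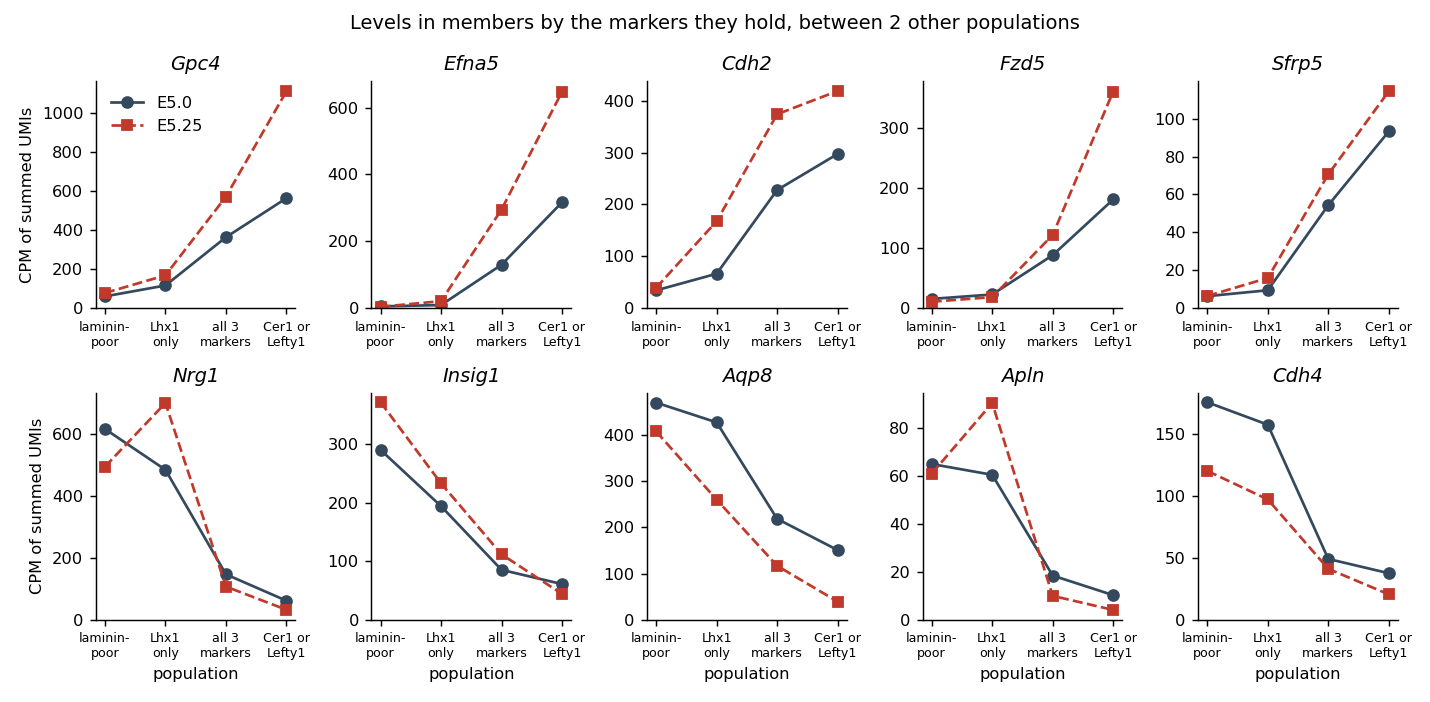
Levels of 10 genes (y axis, CPM of summed UMIs, linear from 0) at E5.0 (solid) and E5.25 (dashed) in laminin-poor marker-negative cells, members with Lhx1 only, members with all 3 markers, and Cer1 or Lefty1 cells (x axis). The 5 upper genes are higher in members with all 3 markers than with Lhx1 only and the 5 lower genes are lower, with Nrg1 and Apln at E5.25 highest in members with Lhx1 only.

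Members of adjacent libraries differed in few genes. From E5.0 to E5.25, 7 of 8707 genes were at least 2-fold higher (0.0804%) and 0 lower. From E5.25 to E5.5, 15 of 8954 were higher (0.168%) and 15 lower (0.168%), and from E5.0 to E5.5, 72 of 8916 were higher (0.808%) and 38 lower (0.426%). Afp was at 22.6, 94.8 and 268 CPM and was found at equal depth in 9.34%, 29.4% and 61.3% of members. Mest, an imprinted gene, was at 18.5, 84.8 and 163 CPM, and Pcdh7, a protocadherin gene, at 3.09, 18.3 and 55.2 CPM. Both were far lower in laminin-poor cells, with Mest at 3.43, 4.87 and 23.3 CPM and Pcdh7 at 0.16, 0.97 and 1.46 CPM. Mest, and Afp by its levels given above, thus also rose over the 3 libraries in laminin-poor cells. The log2 ratios of E5.5 over E5.0 in members were 1.94 for Tspan7, a tetraspanin gene, 1.92 for Cd24a, 1.80 for Grb10, 1.73 for the growth factor binding protein gene Igfbp2 and 1.52 for Arhgap6, which had 1.09 without laminin-rich members. Gpc4 and Rspo3 had 1.13 and 1.11, and Rspo3 had -0.63 in Cer1 or Lefty1 cells.

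Genes that were lower at E5.5 were also lower there in laminin-poor cells. Aqp8 was at 273, 172 and 74.5 CPM in members and 471, 408 and 193 CPM in laminin-poor cells. Has2, which makes hyaluronan, was at 167, 99.7 and 57.3 CPM and 176, 68.4 and 75.4 CPM, and Cited1, a transcriptional coactivator, at 713, 539.6 and 289.6 CPM and 1063, 949 and 602 CPM. Fkbp11 and Sec11c, of the secretory pathway, had log2 ratios of -1.17 and -1.14 in members and -0.81 and -1.04 in laminin-poor cells. Eepd1, a nuclease gene, had -1.37 in members, Pip4k2a, a lipid kinase gene, -1.32 and Dppa5a, a pluripotency-associated gene, -1.12. Lrp2 of the rule had -1.67 in members, -1.22 in laminin-poor cells and -2.18 in Cer1 or Lefty1 cells. At E5.5, 8 of 8 trophoblast markers were above their E5.25 level in members, beside 51.9% of all genes measured, with a median log2 ratio of 0.64. The same median was 1.56 in laminin-poor cells and 1.09 in Cer1 or Lefty1 cells. Of the immediate early genes, 10 of 10 were above their E5.0 level in members, beside 54.3% of all genes, with a median of 0.48. That median was 0.89 in laminin-poor cells and 0.44 in Cer1 or Lefty1 cells. The part of trophoblast and immediate early RNA in the stage results was not tested.

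**Figure D5:**
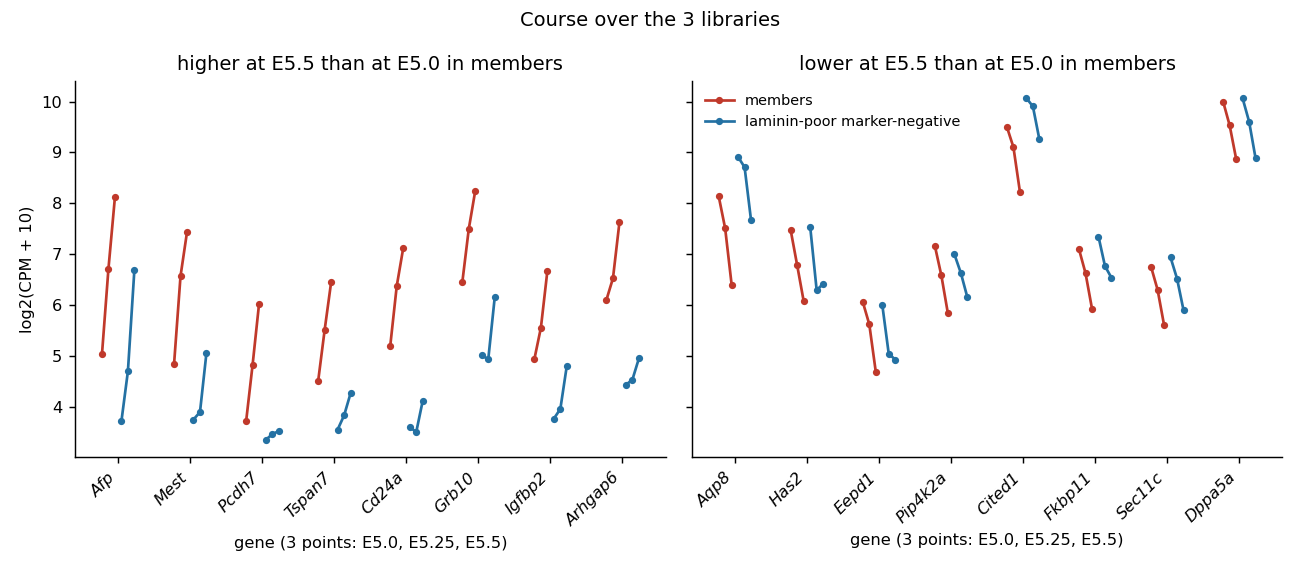
Log2 of CPM plus 10 (y axis) at E5.0, E5.25 and E5.5, as 3 joined points per gene (x axis), in members (red) and laminin-poor marker-negative cells (blue), for the 8 genes highest and the 8 lowest at E5.5 over E5.0 in members. In the left panel members lie above laminin-poor cells at each point, and in the right panel the E5.5 point lies under the E5.0 point in both populations.

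Other lists held few or no genes at the 2-fold threshold. Of 20 genes of S phase and 20 of G2 and mitosis, 0 were 2-fold different from either marker-negative set in all 3 libraries, nor were any of 16 measured genes of the glycolysis list or 16 of the migration and planar polarity list. These counts cover listed genes only. Of all genes measured, 1.03% were higher and 0.742% lower than in marker-negative cells in all 3 libraries. Against laminin-poor cells the shares were 0.718% and 0.0479%, so a count of 0 in lists of this size is near the background. Outside the lists, Elmo1, named above, and the planar polarity gene Prickle2 were at least 2-fold higher than in both sets in all 3 libraries. Amot, which encodes angiomotin, known from migration of the anterior visceral endoderm, had log2 ratios of 0.32, 0.65 and 1.10 over laminin-poor cells and -0.47, -0.97 and -0.71 over Cer1 or Lefty1 cells. Of 16 measured epithelium and polarity genes Cdh2 alone was 2-fold higher than in marker-negative cells, and 0 lower.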

How the data were processed

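Single-cell RNA of mouse embryos was measured in 6 libraries, 1 per stage, of which E5.0, E5.25 and E5.5 are compared. The authors deposited unnormalised UMI counts per gene and barcode, and the file headers name Cell Ranger 7.1.0. Builds named in the submitters' processing notes are mm10, GRCm38 and hg38, the last with no role given. The sources used here do not say how genes were annotated or barcodes called, or whether strand was used. Gene positions are from GENCODE M21 on GRCm38, matched by identifier for 32158 of 32285 genes. Counts were summed per population and library and scaled to CPM, with exact 95% Poisson intervals for levels and exact binomial intervals (Clopper-Pearson, SciPy 1.17.1) for shares. Ratios use a pseudocount of 10 CPM, genes needed 10 CPM, and 2-fold or more in each library compared was counted. Intervals cover counting error only. No count model was fitted and no test made, since members were chosen by counts of the same cells and each stage has 1 library. Shares at equal depth came from cells thinned to 5000 UMIs. Epiblast-type cells held 15 per 10000 UMIs of the epiblast genes of the rule, and trophoblast-type cells 5 of Elf5, Tfap2c, Hand1 and Gata3, both with under 5 of the uptake genes. Doublets were scored with Scrublet (Scanpy 1.11.5) and removed only in an alternative. The calculations were tested on simulated data.

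The members and gene lists were chosen with earlier results of these data known. Genes were named as the 12 highest and 12 lowest against marker-negative cells (8 and 8 against Cer1 or Lefty1 cells) by the smallest of the 3 ratios, with 50 CPM in the higher population and 1.5-fold in every library. For stages, they were the 8 highest and 8 lowest with 1.3-fold at both steps. Genes of the rule, mitochondrial and ribosomal protein genes, haemoglobin genes, unnamed models and genes under 0.2 of their level in epiblast-type or trophoblast-type cells were left out. Genes named by role come from lists. Some genes are not reported here and were left out of the lists. The laminin split, its naming of genes, the omission of cells with trophoblast RNA, that of laminin-rich members and the use of E5.0 and E5.25 alone were chosen after seeing the data. The alternatives were 3 marker UMIs, thinning before the marker, Cer1 and Lefty1 parts of the rule, and a stricter epiblast limit. Others were removal of doublet-like cells, another scaling, a pseudocount of 1 and other filters on low genes.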

Additional observations from a re-analysis of the deposited data

Results flagged for a closer look

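Cells that meet the same rule were also found before E5.0, in libraries that the comparisons above do not use. The E4.5 library held 58 such cells among 339 that met the visceral endoderm rule (17.1%, exact 95% binomial interval 13.3 to 21.5%), and only 5 Cer1 or Lefty1 cells. Of the 339, 187 were laminin-rich marker-negative cells. The rule was written for E5.0 to E5.5, so meeting it does not name the tissue at E4.5. The E4.75 library held 382 among 1057 (36.1%, 33.2 to 39.1%), with 132 Cer1 or Lefty1 cells. Both values stand out only as signal in data outside the comparison, and no control sample sets a level for them. The E4.75 members were deeper, with a median of 35195.5 UMIs, which bears on a rule written in UMIs, and its part was not tested. E4.5 embryos were flushed after superovulation and filtered, those of E4.75 dissected and unfiltered.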

How the results depend on the processing

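With 3 or more marker UMIs, members were 31.1%, 23.7% and 20.4% of visceral endoderm cells at E5.0, E5.25 and E5.5. When the marker, Cer1 and Lefty1 parts of the rule were applied to counts thinned to 5000 UMIs they were 27.4% at E5.0 and 23.6% at E5.25. Against marker-negative cells, a pseudocount of 1 CPM gave 151 higher and 130 lower genes in place of 87 and 63. Laminin-poor cells as the comparison gave 4 lower genes, or 7 without laminin-rich members, and against all marker-negative cells the lower genes were 98 without those members and 145 in E5.0 and E5.25 alone. Against Cer1 or Lefty1 cells the 2 higher genes became 0 with 3 marker UMIs, 6 with a pseudocount of 1 CPM, 1 without cells of a trophoblast sum of 5 or more, 1 without laminin-rich members and 5 in E5.0 and E5.25 alone. The 13 lower genes became 6 after thinning, 24 with that pseudocount and 24 in E5.0 and E5.25 alone. From E5.0 to E5.5 the 72 higher and 38 lower genes became 220 and 140 with a pseudocount of 1 CPM. The lower pseudocount counts low genes that the main one holds back, and the cause of the other changes was not tested. Of 616 values of 56 named genes under the alternatives, 535 stayed within counting error, 69 moved beyond it and 12 changed sign. The changes of sign were in 9 genes that were lower than all marker-negative cells in each library but, at E5.5, higher than laminin-poor cells, with log2 ratios there of 1.15 for Lama1, 0.32 for Fst, 1.16 for Epas1, 0.48 for Cryab, 0.75 for Lifr, 1.12 for Kcnq5, 0.67 for Lamb1, 0.61 for F3 and 0.21 for Plod2. At E5.5 8.84% of members were laminin-rich. Without laminin-rich members the ratios at E5.5 were above 0 in 3 of the 9, at 0.062 for Lifr, 0.39 for Kcnq5 and 0.085 for Lamb1. Each stage had 1 library, so no left-out replicate could be tried. Members were compared with other cells of their own library, which pairs the populations within each of the 3 libraries. No paired test was made of this, because members were chosen by the counts of the same cells. Stages have 1 library each and hold no pairs.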

Other observations

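Several genes outside the lists were at least 2-fold higher in members than in marker-negative cells in all 3 libraries. Those given here were chosen after their values were seen. Mixl1, a homeobox gene known from the primitive streak, was at 78.6, 61.5 and 40.1 CPM in members at E5.0, E5.25 and E5.5, 13.9, 4.55 and 6.81 CPM in laminin-poor cells and 104, 48.5 and 10.9 CPM in Cer1 or Lefty1 cells. Epiblast-type cells had Mixl1 at 0.41, 0.73 and 0.45 CPM. Cyp26a1, which degrades retinoic acid, was at 335, 331 and 325 CPM in members and 137, 58.0 and 73.9 CPM in laminin-poor cells. Prdm1, a transcriptional repressor, was at 24.1, 29.3 and 45.2 CPM in members, 3.28, 2.44 and 5.84 CPM in laminin-poor cells and 54.7, 97.8 and 136 CPM in Cer1 or Lefty1 cells. Itga6, a laminin receptor subunit, was at 89.8, 68.0 and 49.5 CPM in members against 17.2, 13.3 and 17.0 CPM in laminin-poor cells.

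At E4.75, cells meeting the rule had Gpc4 at 132 CPM against 28.5 CPM in laminin-poor cells, and Efna5 at 13.3 against 3.76 CPM. Fgf8 was at 43.7 against 10.7 CPM and Rspo3 at 10.2 against 7.52 CPM.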
